A study of Homo sapiens with 8 samples.

Results

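The 36 genes described here act in mitosis, the division of the duplicated chromosomes between the daughter cells. They were chosen by name from a list of cyclins, mitotic kinases, checkpoint, kinetochore and spindle proteins, kinesin motors, ubiquitin ligase parts, cytokinesis proteins and the proliferation marker MKI67. Each of the 36 names stood on 1 row of the deposited tables, among 48162 genes in all. Their RNA was measured by RNA sequencing in KYSE70 and KYSE450, established human cell lines from esophageal squamous cell carcinoma, after the long noncoding RNA NMR was knocked down or overexpressed. There were 8 libraries, 1 for each line in each of 4 groups. Overexpression cells received a pcDNA3.1 plasmid by lipid transfection, and knockdown cells were infected with lentivirus packaged in HEK 293T cells. Each manipulation had its own control, called here the overexpression control and the knockdown control; the labels do not say what the control cells received. All cells were at passages 5 to 10. No line was replicated within a group, so every treated-against-control value rests on n = 2 cell lines, and the labels do not say that libraries came from separate cultures; p-values then measure only the spread between these libraries. RNA from whole cultures was measured, in which fewer cells in mitosis and less mitotic RNA per cell cannot be told apart.

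Most mitotic genes are switched on late in the cell cycle, reach their peak in G2 and M phase, and are silenced again as daughter cells enter G1. CDK1 bound to cyclin B drives entry into mitosis; kinetochores then attach chromosomes to spindle microtubules, and a checkpoint holds back the anaphase-promoting complex until all are attached. That complex, with its activator CDC20 and the ubiquitin-conjugating enzyme UBE2C, then marks securin and the cyclins for destruction, and the cell divides. Because dividing tumor cells hold these RNAs at high levels, the group is widely read as a measure of proliferation.

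The promoters of such genes are known for a cell cycle homology region (CHR), through which the MuvB complex represses them in resting cells and, with B-MYB and FOXM1, activates them in G2, and for upstream CCAAT boxes, which bind NF-Y. RefSeq promoters on GRCh38.p14, from 250 bases before to 50 bases after the start of the gene, were matched for 30 of the 36 genes. A CHR match (TTTGAA or TTCGAA, on either strand) was found in 23 of the 30, or 76.7%, against 16.6% of all 27305 promoters and 10.8% of those of genes that average 1 FPKM or more. A CCAAT match on either strand was found in 24 of 30, or 80%, against 35.7% of all promoters, and both motifs in 19, or 63.3%, against 6.58%. An E2F match (TTTCCCGC, TTTCGCGC, TTTGCCGC or TTTGGCGC, on either strand), the motif of S phase genes, was found in 3 of 30 mitotic promoters, or 10%. It was found in 3.33% of all promoters and in 5.41% of those of genes that average 1 FPKM or more. Of 30 promoters of a list of replication genes, 16 held an E2F match and 2 a CHR match. In 2 of the mitotic promoters, matches of different motifs overlapped. Windows of the 130 bases before the start are printed for 8 genes on which the results below turn, to show how alike they are. Of these, 6 carry a CHR match downstream of a CCAAT box. CCNB1 and CCNA2 carry CCAAT matches and no match of the CHR forms searched. Other forms of the CHR were not searched, so a gene with no match may still hold one. They are written 5′ to 3′ on the strand of the gene, with matches of CHR and CCAAT, on either strand, in capitals.

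CCNB2 (chr15:59105016-59105145, plus strand): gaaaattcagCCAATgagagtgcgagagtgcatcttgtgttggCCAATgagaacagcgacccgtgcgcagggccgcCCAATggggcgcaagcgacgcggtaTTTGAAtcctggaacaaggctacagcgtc
CCNB1 (chr5:69167020-69167149, plus strand): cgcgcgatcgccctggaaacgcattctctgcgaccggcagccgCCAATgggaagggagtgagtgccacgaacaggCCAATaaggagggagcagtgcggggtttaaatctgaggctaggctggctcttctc
CCNA2 (chr4:121823884-121824013, minus strand): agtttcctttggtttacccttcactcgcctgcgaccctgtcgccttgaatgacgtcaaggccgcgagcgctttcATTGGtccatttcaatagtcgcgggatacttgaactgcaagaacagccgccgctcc
PLK1 (chr16:23678759-23678888, plus strand): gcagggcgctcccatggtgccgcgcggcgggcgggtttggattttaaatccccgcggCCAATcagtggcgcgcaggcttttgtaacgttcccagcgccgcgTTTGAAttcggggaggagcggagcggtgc
CDC20 (chr1:43358851-43358980, plus strand): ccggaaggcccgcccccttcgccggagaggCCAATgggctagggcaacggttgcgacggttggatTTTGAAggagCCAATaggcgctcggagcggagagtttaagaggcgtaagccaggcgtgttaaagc
KIF11 (chr10:92593000-92593129, plus strand): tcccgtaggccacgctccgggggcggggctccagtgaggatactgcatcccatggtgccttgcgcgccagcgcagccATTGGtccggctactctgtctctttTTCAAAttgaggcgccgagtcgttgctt
PRC1 (chr15:90994536-90994665, minus strand): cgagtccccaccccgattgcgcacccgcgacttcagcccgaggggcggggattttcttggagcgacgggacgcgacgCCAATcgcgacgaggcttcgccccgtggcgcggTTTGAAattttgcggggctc
MKI67 (chr10:128126424-128126553, minus strand): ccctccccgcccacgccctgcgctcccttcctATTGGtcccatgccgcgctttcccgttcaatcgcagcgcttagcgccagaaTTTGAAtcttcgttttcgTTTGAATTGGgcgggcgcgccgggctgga

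Sequencing depth ran from 26401805 reads in the KYSE70 knockdown library to 37937856 in the KYSE450 knockdown control. These reads were recovered from the deposited values, which behave as FPKM (read number divided by gene length and by library total). All 36 mitotic genes were among the 14311 genes tested, which average 1 FPKM or more, and each was read deeply, from 600 reads for CENPA in the KYSE70 knockdown control to 23983 for TOP2A. Squamous markers, as the lines' origin calls for, were at 1 FPKM or more for 11 to 13 of 14 genes in every library, leukocyte markers for 0 of 8. Fibroblast markers were at that level for 3 of 8 genes in every KYSE70 library and 2 of 8 in every KYSE450 library. Endothelial markers were for 0 to 2 of 5. NMR is not a gene name in the files, so its level was not checked, and all groups are named by their labels. The KYSE70 knockdown library stood apart: 8.63% of its summed FPKM came from mitochondrially encoded genes, where the range was 3.84% to 5.75% elsewhere, and its change from control followed GC content across genes, as given below with the knockdown values.

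Together the 36 genes took 0.635%, 0.628%, 0.505% and 0.608% of the reads in KYSE70 and 0.62%, 0.552%, 0.457% and 0.478% in KYSE450, in the order overexpression control, overexpression, knockdown control and knockdown, which is kept below. In both lines the highest share was in the overexpression control and the lowest in the knockdown control. The KYSE70 knockdown library lay close to the overexpression libraries of its line, and the KYSE450 knockdown library close to its own control.

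**Figure D1:**
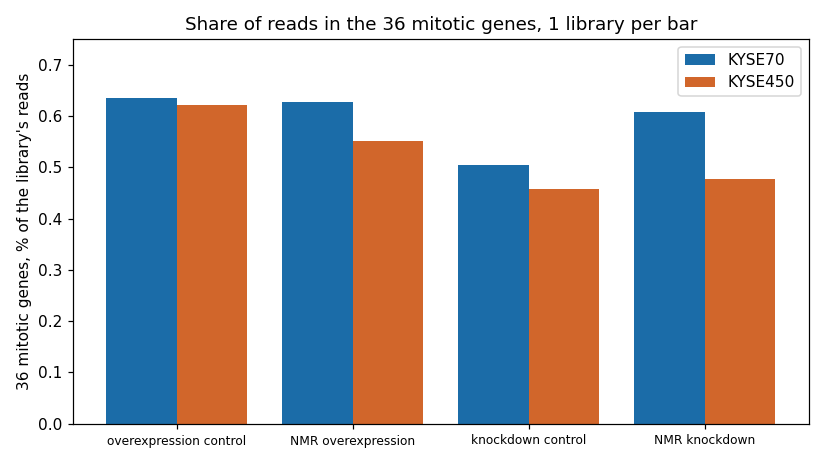
Percent of the reads of each library that fell in the 36 mitotic genes, 1 bar per library, by group and cell line. Shares ran from 0.457% in the KYSE450 knockdown control to 0.635% in the KYSE70 overexpression control.

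Among the genes of mitotic entry, CDK1, the kinase that starts mitosis, stood at 113, 107, 92.6 and 138 FPKM in KYSE70 and 67.4, 61.5, 57.6 and 70.2 in KYSE450. CCNB1, its main cyclin partner, reached 249.8, 248, 156 and 169 FPKM in KYSE70 and 273, 224, 175 and 178 in KYSE450. In each line both CCNB1 values of the knockdown arm lay below both of the overexpression arm. CCNB2, a second B-type cyclin, varied less, with 132, 111, 128 and 115 FPKM in KYSE70 and 106, 94.7, 107 and 92.6 in KYSE450. CCNA2, the cyclin of S phase and early mitosis, gave 56.5, 53.5, 37.0 and 44.3 FPKM in KYSE70 and 20.9, 15.4, 14.5 and 16.7 in KYSE450. All 4 CCNA2 values of KYSE70 lay above all 4 of KYSE450.

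Of the mitotic kinases, PLK1, which acts on centrosomes, kinetochores and cytokinesis, measured 134, 142, 98.6 and 70.3 FPKM in KYSE70 and 126, 97.4, 94.0 and 90.0 in KYSE450. AURKA, the spindle pole kinase, measured 105, 102, 65.6 and 58.8 FPKM in KYSE70 and 66.7, 55.9, 44.4 and 51.4 in KYSE450. AURKB, the kinase of the chromosomal passenger complex, measured 145, 139, 133 and 95.1 FPKM in KYSE70 and 149, 123, 128 and 126 in KYSE450. PLK1 and AURKA were lower in both knockdown-arm libraries than in both overexpression-arm libraries of each line; AURKB was lowest in the KYSE70 knockdown library. TTK, the kinase that starts checkpoint signalling, ranged from 30.5 to 53.1 FPKM, with its lowest value in the KYSE70 knockdown control and its highest in the KYSE70 knockdown library.

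The checkpoint genes differed in kind. BUB1, a kinase that marks centromeric histone and recruits the shugoshins, stood at 41.7, 43.3, 30.7 and 49.4 FPKM in KYSE70 and 134, 107, 104 and 95.9 in KYSE450. All 4 KYSE450 values of BUB1 were above all 4 of KYSE70. BUB3, the adaptor that brings BUB1 and BUB1B to the kinetochore, varied little, with 156, 147, 148 and 131 FPKM in KYSE70 and 157, 152, 166 and 142 in KYSE450. BUB1B, the BUBR1 checkpoint protein, ran from 52.9 to 90.9 FPKM.

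At the centromere, CENPA, the histone variant that marks it, measured 37.1, 35.1, 21.5 and 23.1 FPKM in KYSE70 and 44.5, 37.8, 21.6 and 38.0 in KYSE450. The knockdown controls of both lines were low for CENPA, and in KYSE70 the knockdown library was as well. CENPE, a kinesin that brings chromosomes to the spindle equator, was the lowest of the 36 on average, with 25.3, 25.4, 16.6 and 32.3 FPKM in KYSE70 and 13.4, 15.5, 16.2 and 15.1 in KYSE450. CENPF, a large kinetochore protein, gave 189, 193, 145 and 193 FPKM in KYSE70 and 123, 117, 97.3 and 112 in KYSE450. Both genes were lowest, within KYSE70, in the knockdown control. NDC80, which binds microtubules directly, stood at 237, 217, 217 and 232 FPKM in KYSE70 and 99.2, 91.0, 73.7 and 68.1 in KYSE450; its partner NUF2 ranged from 30.0 to 49.3 FPKM. The 4 KYSE70 libraries were all far above those of KYSE450 for NDC80 and all below them for NUF2, although the proteins form 1 complex. BIRC5 (survivin), of the passenger complex, gave 25.6, 24.2, 21.6 and 24.7 FPKM in KYSE70 and 41.2, 38.4, 27.1 and 29.2 in KYSE450, and CDCA8 (borealin) of the same complex ranged from 15.7 to 31.7 FPKM.

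KIF11 (Eg5), the motor that pushes the spindle poles apart, measured 43.1, 40.4, 46.5 and 53.1 FPKM in KYSE70 and 31.6, 27.7, 20.6 and 24.5 in KYSE450. KIF20A, a motor of the central spindle, measured 70.1, 70.7, 47.3 and 76.7 FPKM in KYSE70 and 90.7, 81.2, 56.9 and 56.6 in KYSE450. The other 3 kinesins, KIF23 of the centralspindlin complex, the microtubule depolymerase KIF2C and the chromokinesin KIF4A, spanned 32.8 to 115, 59.9 to 110.4 and 25.2 to 45.1 FPKM. KIF4A was lower in both knockdown-arm libraries of each line than in its overexpression-arm libraries.

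Of the spindle assembly genes, TPX2, which activates AURKA and nucleates microtubules, gave 59.2, 61.2, 56.0 and 67.1 FPKM in KYSE70 and 76.7, 65.7, 58.9 and 52.0 in KYSE450. ASPM, of the spindle poles, gave 33.9, 35.5, 19.9 and 36.4 FPKM in KYSE70 and 27.4, 24.3, 15.9 and 22.0 in KYSE450. The knockdown control held the lowest ASPM value in each line. HMMR, a microtubule-binding protein of the spindle, gave 28.9, 26.7, 35.9 and 45.3 FPKM in KYSE70 and 57.8, 52.2, 60.2 and 46.0 in KYSE450. NUSAP1 (86.7 to 114 FPKM) and DLGAP5 (47.7 to 94.5 FPKM) bind and stabilise spindle fibers, and PRC1, which crosslinks the central spindle, stood at 97.1, 94.0, 78.4 and 64.4 FPKM in KYSE70 and 226, 204, 191 and 160.4 in KYSE450. PRC1 was higher in every KYSE450 library than in any of KYSE70.

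CDC20, the activator of the anaphase-promoting complex, had 390.5, 381, 263 and 244 FPKM in KYSE70 and 211, 174, 162 and 147 in KYSE450. UBE2C, its ubiquitin-conjugating enzyme, had 168, 167, 142 and 109.5 FPKM in KYSE70 and 108, 96.0, 81.7 and 74.0 in KYSE450. PTTG1 (securin), the inhibitor of sister separation that the complex destroys, had 129, 116, 114 and 97.2 FPKM in KYSE70 and 179, 176, 249 and 224 in KYSE450. CDC20 and UBE2C were lower in the knockdown arm of both lines, while PTTG1 was lower in that arm in KYSE70 and higher in KYSE450. ANLN (anillin), the scaffold of the cleavage ring, had 162, 164, 104 and 196 FPKM in KYSE70 and 117, 106, 76.1 and 90.8 in KYSE450, and ECT2, the activator of RhoA at that ring, ranged from 65.7 to 96.0 FPKM.

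TOP2A, the topoisomerase that untangles sister chromosomes, had the highest mean of the 36, with 299.9, 313, 268 and 382 FPKM in KYSE70 and 529, 500.1, 350.2 and 399.7 in KYSE450. MKI67, the Ki-67 antigen that coats mitotic chromosomes, stood at 114, 113, 84.5 and 99.3 FPKM in KYSE70 and 132, 116, 66.9 and 91.2 in KYSE450. Levels of different genes depend on the gene length used in making the values. The length implied for TOP2A was 1642 bases, where its longest GENCODE transcript has 5758, and with the longest transcripts CDC20 and PTTG1 would rank above TOP2A. Changes within a gene do not depend on that length.

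**Figure D2:**
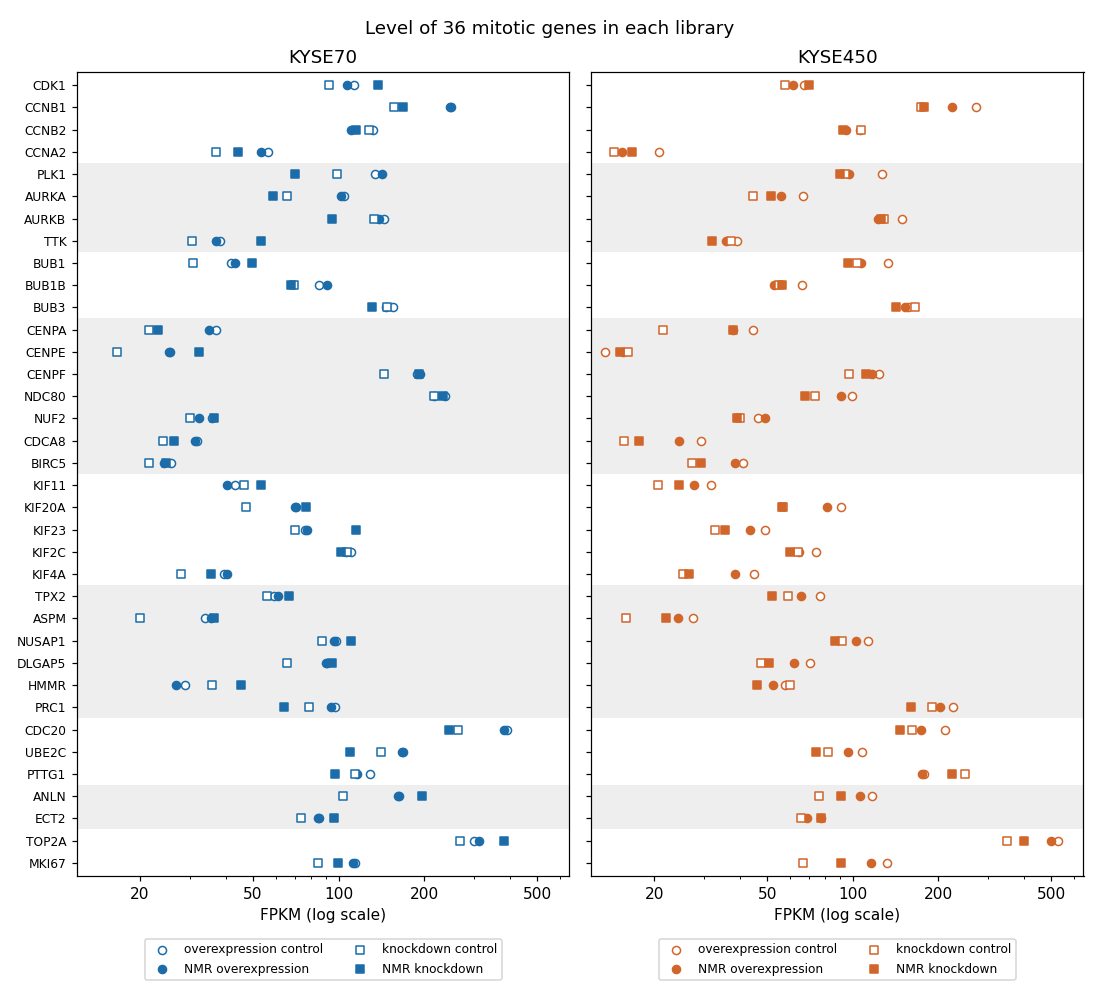
FPKM (log axis) of each of the 36 mitotic genes in the 4 libraries of KYSE70 (left) and of KYSE450 (right); open symbols are controls, filled symbols the manipulated cells, and grey and white bands separate the roles in the order of the text. The knockdown controls (open squares) lie at or near the left end of many rows, as for ASPM at 19.9 and 15.9 FPKM.

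The lines differed in many of these genes. With limma on log2(FPKM + 1), cell line and group as terms and Benjamini-Hochberg adjustment over all 14311 genes, 23 of the 36 mitotic genes passed an adjusted p of 0.05, against 54.0% of all genes tested. Of these, 16 were lower in KYSE450, where 26.6% of all genes were, and 7 were higher, where 27.4% were. Without 1 overexpression-arm library (control or treated, of either line) 14 passed, where 42.5% to 44.8% of all genes did; this was the smallest number of the alternatives, and HMMR, TOP2A and BIRC5 were among those lost.

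CCNA2 fell by 1.45 on the log2 scale in KYSE450 (SE 0.13, adjusted p = 0.000132, lower in all 4 groups), and NDC80 fell by 1.45 (SE 0.13). KIF23, CDC20, KIF11 and CDK1 followed, with -1.04, -0.86, -0.80 and -0.79. BUB1 rose by 1.40 (SE 0.16, adjusted p = 0.000391) and PRC1 by 1.22 (SE 0.11), both in all 4 groups. PTTG1, HMMR, TOP2A and BIRC5 rose by 0.84, 0.67, 0.48 and 0.46. Members of 1 machine went opposite ways: of the NDC80 complex, NDC80 fell and NUF2 rose (by 0.37); of the checkpoint, BUB1 rose and BUB1B fell (by 0.43); of securin and its destroyer, PTTG1 rose and CDC20 and UBE2C fell. The proliferation marker MKI67 did not pass, with -0.05 (SE 0.13), nor did CCNB1, with 0.05 (SE 0.12). All 4 KYSE450 libraries were below all 4 KYSE70 libraries for 12 of the 36, against 24.1% of all genes, and above them for 6, against 24.5%. The median of the 36 was -0.17.

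**Figure D3:**
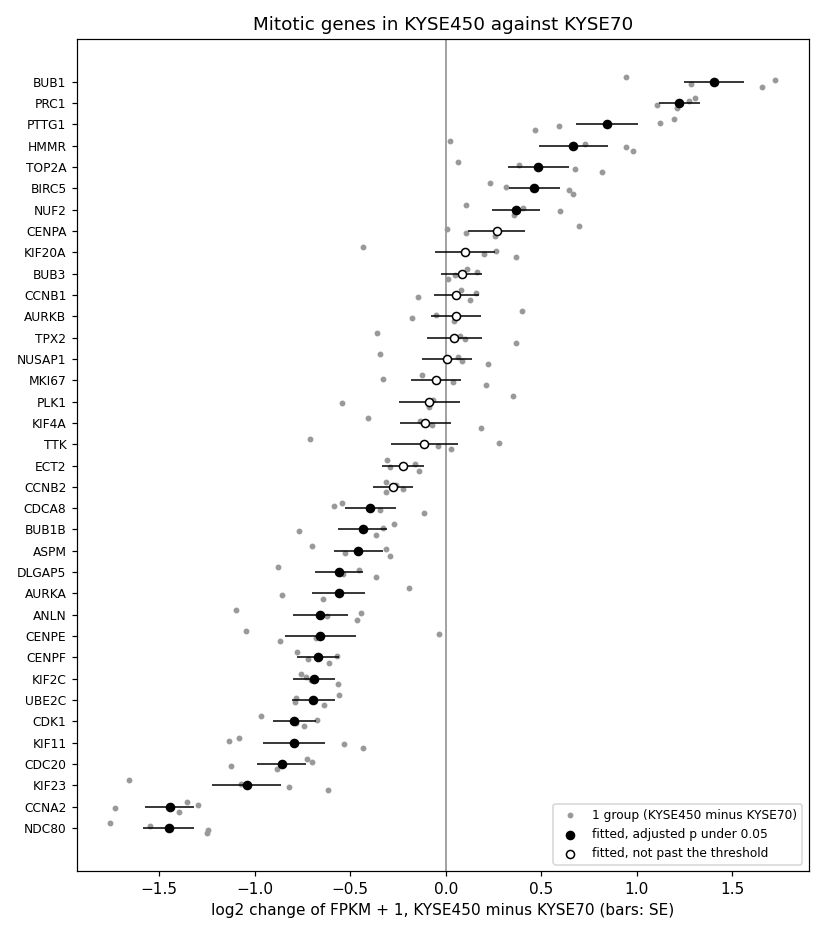
log2 change of FPKM + 1 from KYSE70 to KYSE450 for the 36 mitotic genes, sorted. Large points are the fitted change with its SE, filled where the adjusted p is under 0.05, and small grey points are the 4 single groups; BUB1 (1.40) and PRC1 (1.22) stand at the top, CCNA2 and NDC80 (both -1.45) at the bottom.

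The genes next to these on the chromosomes were set beside them. For 27 of the 36 members the median change of the tested neighbours within 2 Mb had the sign of the member, and so it had for all 23 that passed. How many of all genes have the sign of their neighbours was not computed, so these counts have no background. Of all genes, 49.1% had a fitted change below 0. The 9 others, CCNB1, PLK1, TTK, BUB3, KIF20A, KIF4A, TPX2, NUSAP1 and ECT2, had not passed: TTK, at -0.11, had 9 of 10 neighbours above 0, and KIF20A, at 0.10, had 24 of 28 below 0. Some windows overlap, as those of CDC20 and KIF2C do. NDC80 lies at chr18:2571511-2616635 (GRCh38, GENCODE release 29), and its 26 neighbours had a median of -1.30, with 19 below 0. Among the genes of the replication list the largest fall was that of TYMS, thymidylate synthase, with levels of 1393, 1323, 659 and 418 FPKM in KYSE70 and 124, 102, 54.7 and 62.7 in KYSE450, and a fitted change of -3.36 (SE 0.18). Around PRC1 (chr15:90966038-90995629), 31 of 32 neighbours were above 0, with a median of 0.99. For KIF11 (chr10:92593286-92655395) 18 of 20 neighbours were below 0, with a median of -0.71, and for KIF2C 64 of 72, with -0.84. For CCNA2 (chr4:121816444-121823933) 10 of 11 neighbours were below 0, with a median of -0.67, and 2 lay below CCNA2 itself. Around BUB1 (chr2:110637698-110678114) 13 of 23 were above 0. The DNA copy number of the lines was not analysed here, and the part of the neighbourhood in these differences was not tested.

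The controls of the arms differed in 1 direction for most mitotic genes. In the knockdown controls, 30 of the 36 mitotic genes were lower than in the overexpression controls of both lines, where 24.3% of all genes were; 1, HMMR, was higher in both, where 37.1% of all genes were. None passed the adjusted threshold (0 of 36, against 0% of all genes, with limma and with voom on recovered reads). An unadjusted p under 0.05 was found for 12, or 33.3%, against 14.5% of all genes, and the smallest adjusted p was 0.181, for CENPA. The median of the 36 was -0.33 (KYSE70 -0.30, KYSE450 -0.39), against 0.07 over all genes. With GC and length trends removed, the medians were -0.43 and -0.39.

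CENPA had the largest difference, -0.89 (SE 0.21; KYSE70 -0.76, KYSE450 -1.01). ASPM (-0.75), MKI67 (-0.70), CCNB1 (-0.66) and KIF4A (-0.65) followed. These genes belong to the centromere, the spindle pole, the chromosome surface, mitotic entry and the chromosome arms. The differences were uneven between close partners: CCNB1 was at -0.66 (SE 0.17) and CCNB2 at -0.01 (SE 0.15), and AURKA at -0.62 and AURKB at -0.17. BUB3 was at 0.00 (SE 0.15). PTTG1 went opposite ways, -0.18 in KYSE70 and 0.48 in KYSE450, and so did CENPE, -0.58 and 0.26. The differences exceeded the counting error of the reads: the 95% interval of the ratio lay below 1 for 32 of the 36 in KYSE70, against 23.6% of all genes, and for 30 in KYSE450, against 36.1%. It lay above 1 for 2 genes in KYSE70, against 45.9%, and for 3 in KYSE450, against 35.7%, and covers counting error only. The 23 genes with a CHR match had medians of -0.31 and -0.42 in KYSE70 and KYSE450. The 7 with no match of the CHR forms searched had -0.56 and -0.21.

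Over all 4 libraries of each arm, 0 of the 36 passed, against 4.02% of all genes (430 higher and 145, or 1.01%, lower in the knockdown arm; 267 and 193 under median-ratio scaling). An unadjusted p under 0.05 was found for 14, or 38.9%, against 27.5% of all genes. The smallest adjusted p was 0.0525, for CCNB1 (-0.55, SE 0.12). CENPA had a larger change (-0.59) and AURKA one close to that of CCNB1 (-0.54). With voom on recovered reads 3 genes, CCNB1, CDCA8 and KIF4A, passed, where 4.81% of all genes did, and 7 with GC and length trends removed, where 6.30% did. In each line, both knockdown-arm libraries were below both overexpression-arm libraries for 9 genes, CCNB1, PLK1, AURKA, CDCA8, KIF4A, PRC1, CDC20, UBE2C and MKI67, against 10.6% of all genes; for 0 were both above in each line, against 20.0%. Within KYSE70, both knockdown-arm libraries were below both overexpression-arm libraries for 14 of the 36, against 21.5% of all genes. Within KYSE450 they were below for 24, against 32.3%. They were above for 2 in KYSE70, against 42.7%, and for 1 in KYSE450, against 35.2%.

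Many relatives of these genes were lower in the knockdown controls as well. Of 128 other mitotic genes in 5 lists (kinetochore and checkpoint, spindle and cytokinesis, condensin and cohesin, the anaphase-promoting complex and mitotic entry control), 83 were lower in the knockdown control of both lines, where 24.3% of all genes were. By list these were 28 of 39 kinetochore and checkpoint genes, 15 of 19 condensin and cohesin genes, but 6 of the 18 subunits and partners of the anaphase-promoting complex, whose median was 0.03. Of 35 replication genes, which act in S phase and not in mitosis, 29 were lower in both. With all libraries of each arm, 70 of the 128 and 27 of the 35 were lower in the knockdown arm of both lines, where 23.5% of all genes were. Over all libraries of the arms, ZWINT, a kinetochore scaffold, fell by 1.16 (SE 0.20, adjusted p = 0.0362), with levels of 98.1, 94.1, 48.0 and 25.3 FPKM in KYSE70 and 72.5, 66.8, 36.2 and 38.6 in KYSE450. TYMS fell by 1.15, MCM5, of the replicative helicase, by 1.07, and PMF1, of the MIS12 kinetochore complex, by 1.03, while CENPH, of the inner kinetochore, rose by 0.70. FOXM1, the activator of G2 and M genes, fell by 0.78 (SE 0.15, adjusted p = 0.0432), from 92.4, 77.0, 60.3 and 52.6 FPKM in KYSE70 and 89.9, 74.0, 36.1 and 46.0 in KYSE450. No gene at all passed without the KYSE450 overexpression control, without the KYSE450 knockdown control or without the KYSE70 knockdown library (0 calls each), so these calls rest on single libraries. Summed marker levels moved with the arm as well, though not every marker did. Of the 12 squamous markers tested, 5 were lower and 2 higher in the knockdown arm of both lines, over all libraries. Of all genes, 23.5% were lower and 36.6% higher in this way, and 0 of the 12 passed. The 14 squamous markers summed to 12605 and 15703 FPKM in the overexpression arm of KYSE70 and to 7899 and 9695 in the knockdown arm, and in KYSE450 to 20273 and 28134 and to 10558 and 14639. Of 6 markers of the HEK 293T packaging cells, 3 were at 1 FPKM or more in the overexpression arm of KYSE70 and 5 in its knockdown arm, where their sum was lower (151 and 140.5 FPKM, against 280.4 and 282); in KYSE450 2 were, in every library. The part of these in the arm differences was not tested. The arms differ in vector, delivery and whatever else set the cultures apart, and these cannot be told apart.

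**Figure D4:**
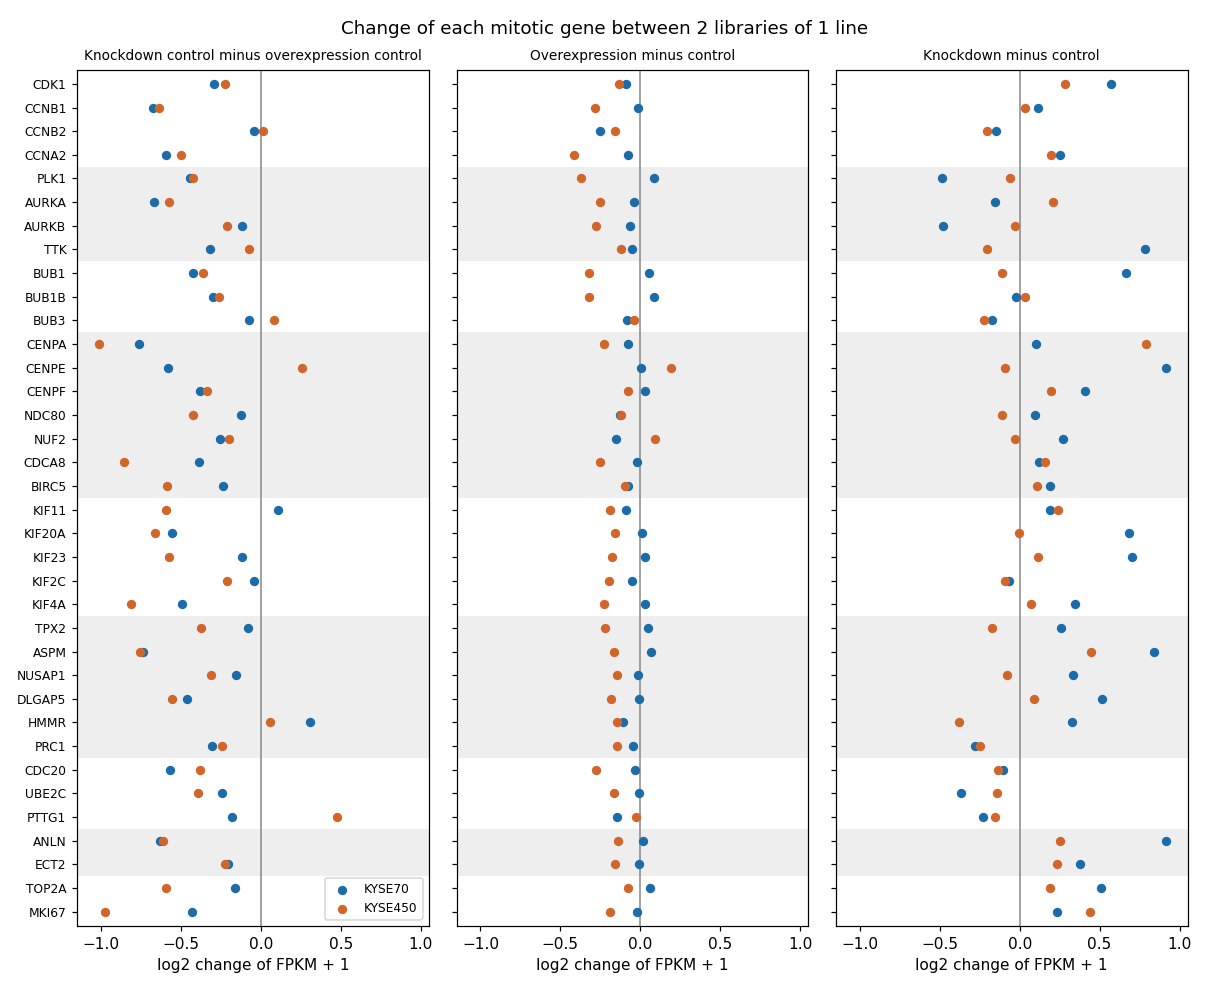
log2 change of FPKM + 1 of each mitotic gene between 2 libraries of 1 line, for the knockdown control against the overexpression control (left), overexpression (middle) and knockdown (right); blue is KYSE70 and orange KYSE450. Most points lie below 0 on the left, the KYSE70 points cluster at 0 in the middle, and the KYSE70 points spread widely on the right, from -0.48 to 0.92.

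Overexpression of NMR went with small changes of the mitotic genes. No gene passed (0 of 36, against 0% of all genes, with limma and with voom), none of the 36 had an unadjusted p under 0.05, and 148 of all genes, or 1.03%, did. Overexpression and knockdown share 1 estimate of the spread in this fit. With the libraries of the overexpression arm alone, 0 of the 36 and 12 of all genes, or 0.0839%, passed. Fitted changes were below 0 for 35 of the 36, where 53.5% of all genes were, and 23 were lower in both lines, where 27.6% were. The median was -0.10 (KYSE70 -0.02, KYSE450 -0.16), against -0.01 over all genes. The overexpression and the control comparison share the overexpression control libraries, so a high value in such a control lowers the gene in both. These controls held the highest share of reads in the 36 genes in each line (KYSE70 0.635%, KYSE450 0.62%). The lines differed in how far the change left the counting error: in KYSE450 the 95% interval of the read ratio lay below 1 for 31 of the 36, against 24.2% of all genes, and in KYSE70 for 10, against 16.6%, while 22 intervals there held 1. Intervals above 1 were found for 4 genes in KYSE70, against 18.4%, and for 1 in KYSE450, against 16.2%. The difference between the lines was not tested.

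All 4 genes of mitotic entry were lower in both lines. CCNA2 changed most, at -0.25 (SE 0.15), with -0.08 in KYSE70 and -0.42 in KYSE450. CCNB2 was at -0.20 (SE 0.14) and was the 1 entry gene with the larger change in KYSE70 (-0.25, against -0.16). AURKB followed at -0.17 (SE 0.17). CENPE, at 0.10 (SE 0.24), was the 1 gene above 0. PLK1 and BUB1B were at 0.08 and 0.09 in KYSE70 and at -0.37 and -0.32 in KYSE450. Of the 128 other mitotic genes 69 were lower in both lines and 3 higher, and of the 35 replication genes 22 and 0, where 27.6% of all genes were lower and 23.0% higher. In those lists and among the factors of G2 and M genes, SGOL1 (shugoshin, the protector of centromeric cohesion) had a fitted change of -0.28 and FOXM1 of -0.27. TFDP2, the partner of E2F proteins, had one of 0.16, and ARPP19, an inhibitor of the phosphatase that opposes CDK1, one of 0.12; none of these passed.

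Under knockdown of NMR no gene passed (0 of 36, against 0% of all genes; with voom 0 of 36 and 4 of all), 3 of the 36 had an unadjusted p under 0.05, and 1794 of all genes, or 12.5%, did. In both lines 16 were higher, where 27.1% of all genes were, and 9 lower, where 25.9% were, and 11 went opposite ways. The median was 0.14 (KYSE70 0.24, KYSE450 0.01). The knockdown and the control comparison share the knockdown control libraries, so a low value in such a control lowers the gene in one and raises it in the other.

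Among the genes higher in both lines, ASPM was at 0.64 (SE 0.16, adjusted p = 0.299, the smallest of the 36), with 0.84 and 0.45 in KYSE70 and KYSE450. ANLN was at 0.58 (SE 0.19), CENPA at 0.45 (SE 0.19), CDK1 at 0.43 and MKI67 at 0.34. CENPA differed in where it moved, 0.10 in KYSE70 and 0.79 in KYSE450. Among the genes lower in both lines, CDC20 was at -0.12, UBE2C at -0.25 and PTTG1 at -0.19. PLK1 (-0.27, SE 0.18), PRC1 (-0.26, SE 0.14) and AURKB (-0.26, SE 0.17) had the largest negative changes; with GC and length trends removed these became -0.11, -0.30 and -0.06. CCNB2, at -0.18, parted from CCNB1, at 0.07. PRC1 was at -0.28 and -0.25 in the 2 lines, whereas PLK1 was at -0.48 and -0.06. In KYSE70 the 95% counting interval lay above 1 for 24 genes, against 33.6% of all genes, and below 1 for 10, against 35.6%; in KYSE450 for 14 each, against 27.9% and 27.2%. Without the KYSE450 pair, 12 of the 36 passed as higher, where 14.7% of all genes did, and 3 as lower, where 19.1% did. Without the KYSE70 pair 1 passed, CENPA, where 4.07% of all genes did. A single knockdown pair then takes its spread from the overexpression arm.

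The KYSE70 knockdown values moved with GC content. Across the 36 genes the change in KYSE70 had a Spearman correlation of -0.66 with the GC content of the longest transcript, against -0.49 over the 13914 tested genes with a reference; in KYSE450 it was -0.20, against 0.04. The points are genes of the same 2 libraries, and no test was made. In KYSE70, 17 of the 18 genes with the lower GC content were above 0, with a median of 0.46, and 8 of the 18 with the higher, with a median of -0.05. Removing the trends of all genes on GC content and length left the lower and the higher set with medians of 0.16 and 0.01, and that of the 36 in KYSE70 became 0.11. After that removal ASPM was at 0.44 in KYSE70 and 0.44 in KYSE450, ANLN at 0.57 and 0.25, and PRC1 at -0.34 and -0.25. CDC20 and PLK1, both rich in GC, came to 0.28 and -0.17 in KYSE70. PTTG1 and ECT2 came to 0.01 and 0.0024 there, KIF11 turned to -0.19, and UBE2C stood at -0.11. The part of GC content, length and the raised mitochondrial share of that library in the knockdown values was not tested.

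**Figure D5:**
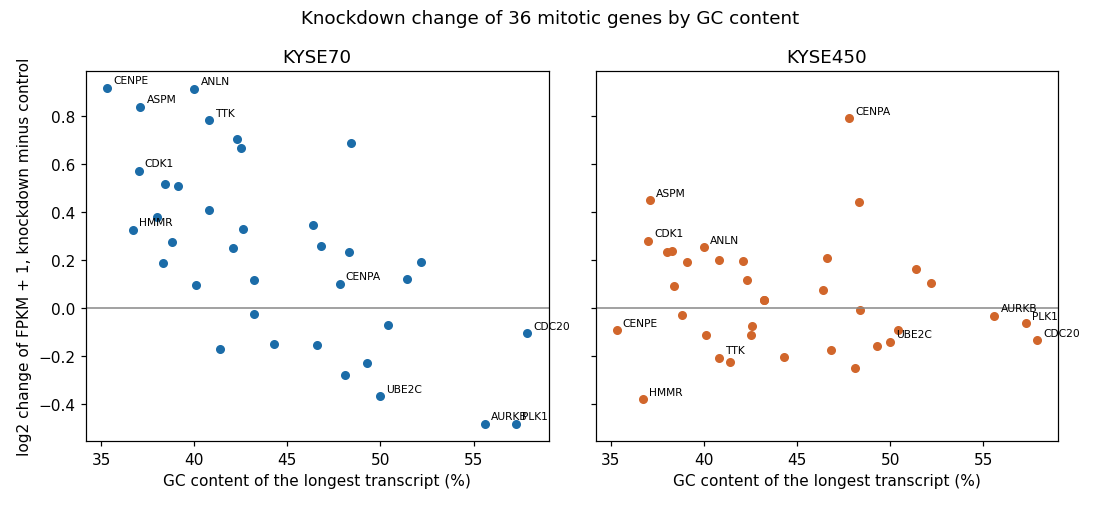
log2 change of FPKM + 1 under knockdown against the GC content of the longest transcript, 1 point per mitotic gene, KYSE70 left and KYSE450 right. In KYSE70 genes from CENPE (35.3% GC) to PLK1 (57.3% GC) run from 0.92 down to -0.48; in KYSE450 the points lie closer to 0, with CENPA at 0.79.

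In the relatives of these genes no knockdown change passed either. Of the 128 other mitotic genes 34 were higher and 30 lower in both lines, and of the 35 replication genes 9 and 6, close to or under the 27.1% and 25.9% of all genes. TUBG1 (gamma-tubulin, which seeds microtubules) was at -0.66 (SE 0.15; KYSE70 -0.81, KYSE450 -0.52), and the checkpoint protein MAD1L1 at -0.59 (SE 0.16). GAS2L3, a cytoskeletal linker of late mitosis, was at 0.64 (SE 0.23).

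The changes under overexpression and under knockdown, which share no library, were also set against each other in the same fit. Each change is taken from the control of its own arm, so an arm difference shared by treated and control libraries cancels. What is particular to the control libraries enters this comparison in full. A gene that is low in the knockdown controls but not in the knockdown libraries gets a lower value here. The difference (overexpression minus knockdown) passed for 0 of the 36, against 0% of all genes, also with voom, and had a smallest adjusted p of 0.870. It had an unadjusted p under 0.05 for 3, or 8.33%, against 4.98% of all genes. It was below 0 in both lines for 21 of the 36, where 26.9% of all genes were, with a median of -0.26. ASPM (-0.69, SE 0.23), ANLN (-0.64, SE 0.26) and CENPA (-0.60, SE 0.27) had the largest negative differences. Between the controls of the arms (knockdown control minus overexpression control) these genes were at -0.75, -0.62 and -0.89. The part of the controls in the differences was not tested. PRC1 (0.17), BUB3 (0.14) and PTTG1 (0.11) had the largest positive ones among genes of the same sign in both lines. Once trends on GC content and transcript length were taken out, the median was -0.17.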

How the data were processed

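The authors deposited 1 table of gene values per library, and these behave as FPKM, a unit read from the values since no label gives one. Per the submitters' processing notes, hg19, TopHat2 2.0.9 and HTSeq 0.6.1 were used, with no role given for each; annotation and strand handling: not given in the sources used here. For all 30872 genes above 0 in 2 or more libraries, values were whole multiples of 1 step (within 0.02), which gave whole reads. Promoters, gene positions, GC content and length come from GRCh38 by gene identifier. Tests used log2(FPKM + 1) in limma 3.58.1 (trend, R 4.3.3) on genes that average 1 FPKM or more, with Benjamini-Hochberg adjustment and a threshold of 0.05; a fold change on this scale understates that of low genes. Overexpression and knockdown were fitted with a term for each treated-control pair, paired by cell line (2 residual degrees of freedom), and cell line and arm with cell line and group (3). The model was run on simulated data with independent noise of 1 spread for all genes and libraries. That noise holds no library that stands apart, as the KYSE70 knockdown library does, so the run cannot show how the fits behave there. Alternatives changed the pseudocount (0.1), filter (none, or 5), scaling, block and test (voom on recovered reads), left out each library, or removed GC and length trends by loess (added after the data were seen, except for knockdown). Values were given in all libraries for 25 named genes, and otherwise for up to 6 called genes, or 3 of the same sign in both lines, in each direction (4 and 2 for other lists). A gene that this rule names is not reported here. FOXM1 under the arms, CDK1, MKI67, BUB1B, CCNB1, CCNB2, BUB3, ECT2, KIF11, TTK, KIF20A and the anaphase genes beside a comparison were singled out after their values were seen. The 36 genes and all lists were chosen with earlier results of these data known.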

Additional observations from a re-analysis of the deposited data

Results flagged for a closer look

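The 36 genes were compared under overexpression, under knockdown and between the controls of the arms. For 16 of these changes the 95% counting intervals of the KYSE70 and KYSE450 read ratios lay on opposite sides of 1. The share of all genes with such opposed intervals was not computed. Single intervals off 1 were common: under knockdown 33.6% of all genes lay above and 35.6% below in KYSE70, and 27.9% and 27.2% in KYSE450. The difference between the lines was not tested, since each line has 1 pair of libraries, and the intervals cover counting error only. Under overexpression the change in KYSE450 minus that in KYSE70 was -0.46 for PLK1, -0.40 for BUB1B, -0.23 for ASPM and -0.14 for TOP2A, each above 0 in KYSE70 and below 0 in KYSE450. Under knockdown the kinases and kinetochore genes that were higher in KYSE70 and lower in KYSE450 had differences of -1.01 for CENPE, -0.99 for TTK, -0.78 for BUB1 and -0.21 for NDC80. The spindle genes HMMR, TPX2 and NUSAP1 had differences of -0.71, -0.43 and -0.41 in the same direction. AURKA was the 1 gene that was lower in KYSE70 and higher in KYSE450, with a difference of 0.36. Between the controls of the arms (knockdown control minus overexpression control) the same measure was 0.84 for CENPE, 0.66 for PTTG1 and 0.15 for BUB3, each lower in KYSE70 and higher in KYSE450, and -0.70 for KIF11, the reverse. The KYSE70 knockdown library behind 8 of these is the one with the raised mitochondrial share and the trend on GC content. Once the GC and length trends were taken out, 12 of the 16 still had opposite signs in the lines. The other 4 did not: in KYSE70 NDC80 became -0.10 and HMMR -0.03 under knockdown, ASPM -0.01 under overexpression and KIF11 -0.03 between the controls, so that all 4 were below 0 in both lines.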

How the results depend on the processing

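The number of mitotic genes that passed stayed at 0 for overexpression and for the controls of the arms under every alternative run, and at 21 to 23 of 36 for cell line under another scaling or voom. With the replicate block removed, or with the block by cell line only, 0 genes passed under overexpression, knockdown and their difference; cell line alone, with no replicate block, gave 20, and pairing changed no other call among the members. Leaving out 1 library gave 0 to 15 passing genes for knockdown, 0 to 12 for overexpression against knockdown, 14 to 21 for cell line and 0 to 8 for the arms over all libraries. In the fits behind the highest counts 33.8%, 22.6%, 53.5% and 17.2% of all genes passed, and in that behind the lowest for cell line 42.5%. For the arms, voom gave 3 (4.81% of all genes) and removal of GC and length trends 7 (6.30%), and the median moved from -0.21 to -0.32 and -0.36, and ran from -0.31 to -0.16 without 1 library. The median of the arm controls, -0.33, became -0.41 under median-ratio scaling and -0.43 with voom, and ran from -0.44 to -0.26 without 1 library. That of overexpression against knockdown, -0.26, became -0.29 after quantile normalization, -0.23 with voom and -0.17 with the trends removed, and ran from -0.34 to -0.14. HMMR between the controls reversed to -0.026 without the KYSE70 overexpression control, and reached 0.39 without that of KYSE450. The causes were not tested. Each of the 36 genes had 600 reads or more in every library.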
